A study of Mus musculus with 6 samples.

Results

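Purine and pyrimidine nucleotides are built from small precursors by the enzymes of de novo synthesis, and 10 genes around this pathway were followed in splenic T cells of rapamycin-treated and PBS-treated mice: Ppat, Gart, Pfas, Paics and Atic of the purine route, Cad, Dhodh and Umps of the pyrimidine route, Impdh2 at the branch to guanine nucleotides, and G6pdx, the entry enzyme of the pentose phosphate pathway. A gene was taken up where a probe set of the array named it and no other gene. This held for 8 of the 10, each with 1 probe set, out of 19938 genes named in this way over the whole array. Impdh2 and G6pdx had no such probe set in the probe table used and were not analysed here.

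The arrays came from 6 mice, 1 array per mouse. All were lethally irradiated B6D2F1/J recipients, given B6 bone marrow from which T cells had been depleted, and the labels do not say which of them also received B6 spleen cells. Rapamycin was given to 3 mice as intraperitoneal injections of 1.5 mg/kg on alternate days up to day 10, and 3 mice had PBS injections. CD3-positive spleen cells were sorted on day 10, so host and donor T cells were not separated, and the age of the mice is not given in the labels.

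De novo purine synthesis assembles the purine ring on phosphoribosyl pyrophosphate and ends at inosine monophosphate, while the pyrimidine route makes orotate first and then attaches the sugar phosphate to reach uridine monophosphate. Resting T cells live largely from salvage of bases and nucleosides, and activated T cells raise de novo synthesis to copy their DNA and RNA. The kinase complex mTORC1, which rapamycin inhibits, is known to act on the pyrimidine route through phosphorylation of the CAD protein by S6 kinase and on the purine route through the transcription factor ATF4 and its mitochondrial folate targets. Myc, which binds DNA at E-box motifs, is a known activator of many of these genes. The arrays measured transcripts only, and phosphorylation was not assayed.

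The E-box CACGTG was searched in a window from 250 bases before to 50 bases after the start site of each gene (RefSeq, GRCm38.p6), where 8 of the 10 genes had a window and Dhodh and Pfas had none. The motif reads the same on both strands. It was found for 3 genes, Atic, Paics and Impdh2, against 8.09% of the 27025 genes with a window. The element TGATGNAA, which ATF4 can bind, was searched on both strands and was found in 0 of the 8, against 4.51% of genes. The 30 bases around each E-box are shown on the gene's own strand because Myc acts at such sites and its own level is given with the regulators, and capitals mark the motif. The Atic stretch is chr1:71557137-71557166 on the plus strand, with the motif starting at position -7 relative to the start site. That of Paics is chr5:76951087-76951116 on the plus strand, with the motif at position -203. That of Impdh2 is chr9:108560314-108560343 on the plus strand, with the motif at position -110.
Atic: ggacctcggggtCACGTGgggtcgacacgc
Paics: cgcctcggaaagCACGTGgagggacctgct
Impdh2: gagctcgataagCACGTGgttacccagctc

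None of the 8 measured genes passed the test. With rapamycin 4 lay higher and 4 lower than with PBS, the median difference was 0.024 log2, and in each gene the 3 rapamycin mice overlapped the 3 PBS mice. Values are log2 expression and differences are rapamycin minus PBS, so a difference of 1 would be a doubled level. The test was limma's moderated test with Benjamini-Hochberg adjustment over 19938 genes and a threshold of 0.05. Of all genes 0.00502% passed, which is 1 gene, so the count of 0 among 8 is near the background. At an unadjusted p under 0.05 stood 0 of the 8 genes, against 4.67% of all genes. The groups did not overlap in 0 of the 8, against 9.42%, and the difference was positive in 4 of 8, against 44.7%. The adjusted p was 1 for all 8, and the smallest unadjusted p was 0.292. Each difference was smaller than the gene's own spread between mice of a group, taken as the pooled SD.

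The precision of the arrays, limited by 3 mice per group, sets what these values can show. The standard errors of the 8 differences ran from 0.086 to 0.151 log2, with a median of 0.101, against a median of 0.0955 over all genes. Read as ratios of rapamycin over PBS, the 95% intervals of the 8 genes together ran from 0.763, the lower bound of Cad, to 1.29, the upper bound of Pfas. Each interval spans no change, but a change within a gene's own interval is compatible with its values too. The bounds are not limits of detection. Upp1, described below, had a ratio of 1.42 and did not pass the adjusted limma test either. In bulk RNA of this kind, fewer cells that express a gene and less RNA per cell cannot be told apart, and the normalization removes any shift shared by most genes.

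**Figure D1:**
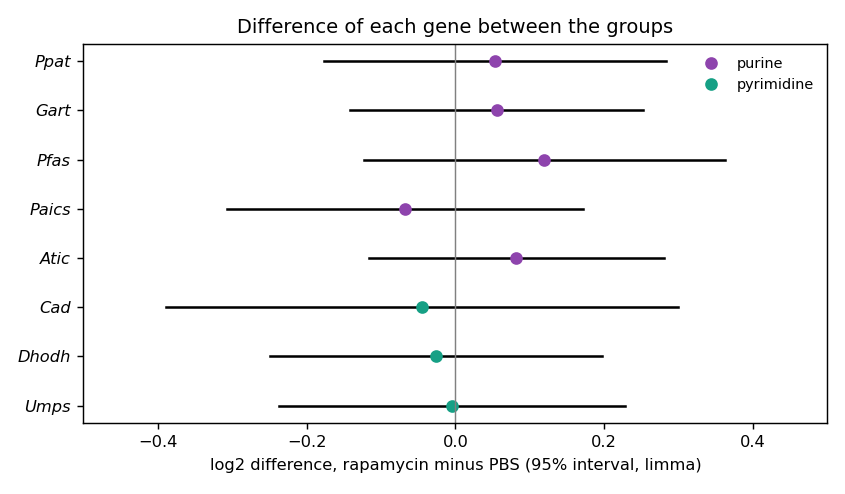
Log2 difference (rapamycin minus PBS, horizontal axis) of the 8 measured genes with its 95% interval from limma; purine genes are purple and pyrimidine genes green. Every interval spans 0, and that of Cad is the widest, from -0.39 to 0.30.

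Purine synthesis opens with Ppat, which encodes the amidotransferase of the committed step. Ppat measured 8.81, 8.93 and 8.77 in rapamycin mice 1 to 3, against 8.60, 8.91 and 8.83 in PBS mice 1 to 3. PBS mouse 1 was the lowest of all, and the other 5 mice lay close together. The difference was 0.053 (SE 0.101, 95% interval -0.18 to 0.28), and it was -0.038 without PBS replicate 1.

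Gart encodes a protein that joins a synthetase, a folate-dependent transformylase and a ring-closing activity of the route. It measured 9.70, 9.79 and 9.67 with rapamycin, against 9.60, 9.80 and 9.60 with PBS. It was the steadiest of the 8 genes, with 0.201 log2 between its highest and lowest mouse. The difference was 0.056 (SE 0.086).

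Pfas, the glutamine-dependent synthetase of the next step, had the largest difference of the 8 genes over all 6 mice. Without PBS replicate 3 or rapamycin replicate 1 that of Cad was larger in size. Without rapamycin replicate 2 that of Paics was larger in size, at -0.12 against 0.105 for Pfas. Pfas measured 8.52, 8.44 and 8.27 with rapamycin, against 8.27, 8.45 and 8.14 with PBS. Rapamycin mouse 3 lay level with PBS mouse 1, so the groups overlapped. The difference was 0.12 (SE 0.106, 95% interval -0.12 to 0.36, unadjusted p = 0.292, adjusted p = 1). It was 0.046 without PBS replicate 3, 0.063 without rapamycin replicate 1, 0.202 without PBS replicate 2 and 0.19 without rapamycin replicate 3.

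Paics encodes a carboxylase joined to a synthetase of the middle of the route. It measured 12.02, 12.35 and 12.36 with rapamycin, against 12.33, 12.25 and 12.34 with PBS. Rapamycin mouse 1 lay below all others, and the other 5 mice were within a narrow band. The difference was -0.068 (SE 0.105), and it was 0.043 without rapamycin replicate 1.

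Atic encodes the enzyme of the closing steps to inosine monophosphate, which also uses a folate donor. It measured 10.04, 9.96 and 9.85 with rapamycin, against 9.84, 9.97 and 9.80 with PBS. The highest mouse had received rapamycin and the lowest PBS, with the rest mixed. The difference was 0.082 (SE 0.087).

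**Figure D2:**
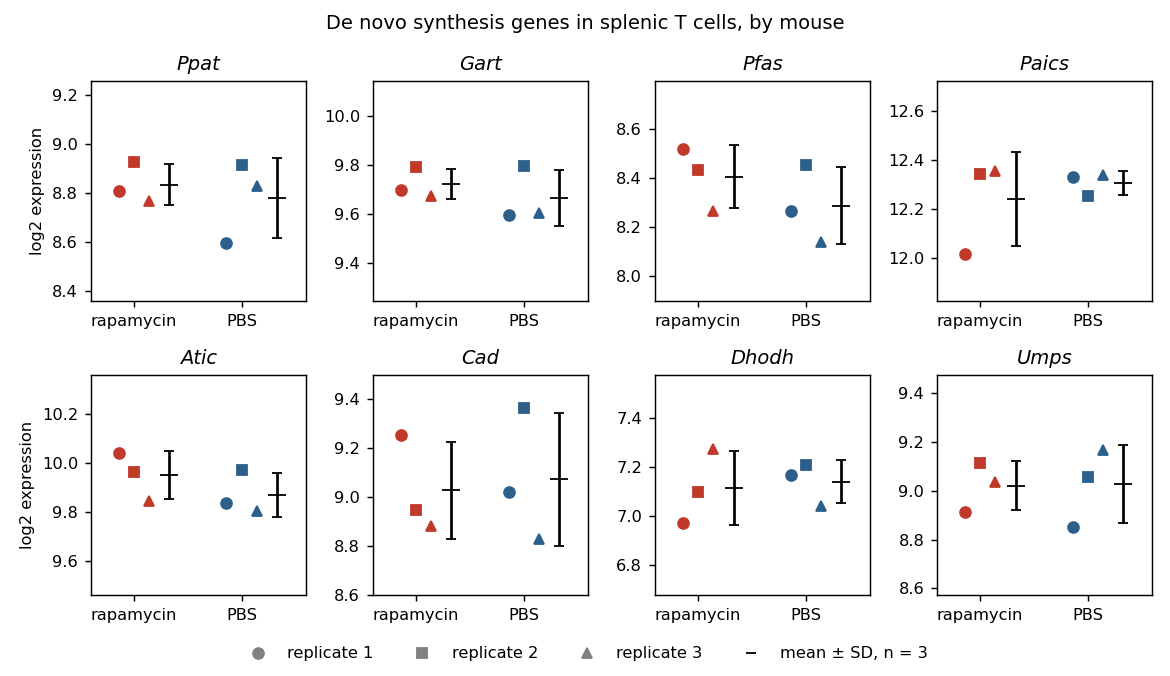
Log2 expression (vertical axis, 0.9 log2 in every panel) of the 8 measured genes in 3 rapamycin mice (left, red) and 3 PBS mice (right, blue), with the symbol marking the replicate number and the bar the mean ± SD. The groups overlap in every panel, Cad spreads most over mice, and rapamycin replicate 1 stands below the other mice in Paics.

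Ppat and Paics are neighbours that start head to head. In RefSeq (GRCm38.p6) Ppat lies on the minus strand and Paics on the plus strand, and their first 277 bases overlap, so the E-box shown above for Paics lies within the transcribed region of Ppat. Their array values did not run in parallel: the 2 genes lay on the same side of their own means in 2 of 6 mice. Relative to its mean over 6 arrays, Ppat stood at 0.00, 0.12 and -0.04 log2 in rapamycin mice 1 to 3 and at -0.21, 0.11 and 0.02 in PBS mice. Paics stood at -0.26, 0.07 and 0.08 in rapamycin mice and at 0.06, -0.02 and 0.07 in PBS mice. This is a description of 6 arrays, and no test of it was made.

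The pyrimidine route showed no difference past the test either. Cad encodes the large protein that makes carbamoyl phosphate, carbamoyl aspartate and dihydroorotate, and it is the member that S6 kinase is known to phosphorylate. Cad measured 9.25, 8.95 and 8.88 with rapamycin, against 9.02, 9.36 and 8.83 with PBS. PBS mouse 2 and rapamycin mouse 1 were high, and PBS mouse 3 and rapamycin mouse 3 were low, so the mice of a group differed more than the groups did. The difference was -0.045 (SE 0.151, 95% interval -0.39 to 0.30). It was 0.101 without PBS replicate 2, 0.028 without rapamycin replicate 3, -0.167 without PBS replicate 3 and -0.159 without rapamycin replicate 1.

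The spread of Cad was the widest of the 8 genes. Its highest mouse lay 0.536 log2 above its lowest, a ratio of 1.45, against 0.201 to 0.378 log2 for the other 7 genes and a median of 0.316 log2 over all genes. The pooled SD within groups was 0.238 for Cad, against a median of 0.117 over all genes.

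Dhodh encodes the mitochondrial dehydrogenase that makes orotate and passes electrons to ubiquinone. It measured 6.97, 7.10 and 7.27 with rapamycin, against 7.17, 7.21 and 7.04 with PBS. Both the highest and the lowest mouse had received rapamycin. The difference was -0.026 (SE 0.098), and it was 0.045 without rapamycin replicate 1 and 0.0087 without PBS replicate 2.

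Umps encodes the bifunctional enzyme that turns orotate into uridine monophosphate. It measured 8.91, 9.11 and 9.04 with rapamycin, against 8.85, 9.06 and 9.17 with PBS. Its difference was the smallest of the 8 over all 6 mice, at -0.0052 (SE 0.102, 95% interval -0.24 to 0.23). Its sign turned in 8 of 15 alternative analyses, some of which leave every member's difference unchanged by construction.

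Across mice, several of the genes lay high or low together in a way that did not follow the treatment. The same counts over all genes were not taken, and array medians lay between 6.03 and 6.17. A shift of a whole array cannot be told apart from this, and no test was made. PBS mouse 2 lay above the gene's own mean in 7 of 8 genes and rapamycin mouse 2 in 6 of 8, while PBS mouse 1 did so in 2 of 8. The mean deviation over the 8 genes was -0.001, 0.049 and -0.017 log2 in rapamycin mice 1 to 3, against -0.070, 0.098 and -0.059 in PBS mice 1 to 3. Pfas and Atic shared their top 3 mice in the same order, rapamycin mouse 1, PBS mouse 2 and rapamycin mouse 2, and both were lowest in PBS mouse 3. Cad was also highest in PBS mouse 2 and rapamycin mouse 1 and lowest in PBS mouse 3. In rapamycin mouse 1, by contrast, Paics, Dhodh and Umps stood at -0.26, -0.16 and -0.11 log2 from their means.

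**Figure D3:**
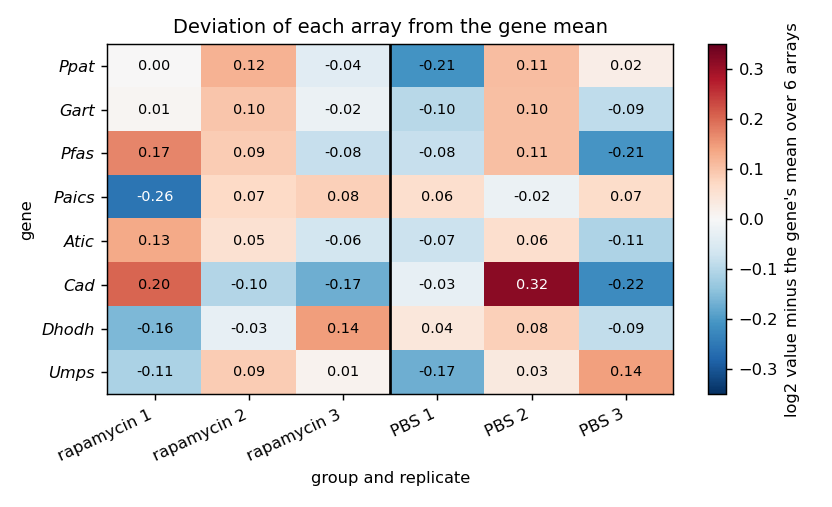
Deviation of each array (columns, 3 rapamycin mice left of the line and 3 PBS mice right of it) from the mean of each gene over the 6 arrays (rows, log2, red above and blue below). PBS mouse 2 is above the mean in 7 of 8 genes, and rapamycin mouse 1 is split between high Cad, Pfas and Atic and low Paics, Dhodh and Umps.

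The other genes of nucleotide metabolism were read from the same fit. Over 6 lists of 78 further genes, 74 were measured, of which 39 lay higher and 35 lower with rapamycin, with a median difference of 0.0026 log2. Of these 74, 0 passed the adjusted test and 2 had an unadjusted p under 0.05, against 4.67% of all genes. The groups did not overlap in 5 genes, or 6.76%, which is below the 9.42% of all genes.

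The enzymes that flank the members in purine synthesis lay close between the groups. Of 13 measured genes 8 lay higher and 5 lower, with a median of 0.0070. The phosphoribosyl pyrophosphate synthetases that feed the purine route, Prps1 and Prps2, differed by -0.034 and 0.063, and Adsl, which acts at both a late step and the branch to AMP, by 0.029. At the branch to guanine nucleotides Impdh1, the paralog of Impdh2, averaged 8.23 ± 0.08 with rapamycin and 8.29 ± 0.08 with PBS (SD, n = 3 each), a difference of -0.058. Gmps, which makes GMP, differed by 0.087. Adssl1, the adenylosuccinate synthetase best known from muscle, had the largest difference of this list at 0.31 (SE 0.153, adjusted p = 1). It measured 7.36, 7.73 and 7.95 with rapamycin, against 7.41, 7.17 and 7.52 with PBS.

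Genes that carry uridine monophosphate on to cytidine and deoxyribonucleotides gave 7 of 10 higher and 3 lower, with a median of 0.026 and 0 past either the adjusted or the unadjusted test. Cmpk1, the kinase of UMP and CMP, differed by 0.16 (SE 0.111), Dctd, the deoxycytidylate deaminase, by 0.17 (SE 0.128) and the CTP synthase Ctps2 by 0.11 (SE 0.086). Thymidylate synthase Tyms and the ribonucleotide reductase subunit Rrm1 differed by 0.0046 and -0.011.

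The serine and one-carbon genes, which supply the folate units used by Gart and Atic, lay lower in 9 of 14 and higher in 5, with a median of -0.042. Psph, the phosphatase that completes serine synthesis, measured 7.90 to 8.02 in the 3 rapamycin mice, against 8.12 to 8.37 in the 3 PBS mice. The groups did not overlap, and the difference was -0.26 (SE 0.089, unadjusted p = 0.0194, adjusted p = 0.982). The preceding enzyme Psat1 also separated, at 9.51, 9.53 and 9.62 with rapamycin, against 9.63, 9.68 and 9.72 with PBS (difference -0.12, SE 0.075, adjusted p = 1). Shmt2, the mitochondrial serine hydroxymethyltransferase, differed by -0.097, and Mthfd2, the mitochondrial folate enzyme known as an ATF4 target, by 0.030.

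In the pentose phosphate pathway, whose entry enzyme G6pdx was not analysed here, 4 of 8 measured genes lay higher and 4 lower (median -0.0021). Pgls, the lactonase that follows G6pdx, measured 8.73, 8.84 and 8.66 with rapamycin, against 8.54, 8.65 and 8.56 with PBS. The 3 rapamycin mice lay above the 3 PBS mice by a narrow margin (difference 0.16, SE 0.082, adjusted p = 1). H6pd, the counterpart of G6pdx in the endoplasmic reticulum, differed by -0.12 and the sugar kinase Rbks by -0.066.

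Salvage genes, the alternative source of nucleotides, lay higher in 7 of 17 and lower in 10, with a median of -0.040. Upp1, uridine phosphorylase, had the largest difference of the 6 lists. It measured 7.30, 8.12 and 7.69 with rapamycin, against 7.20, 7.06 and 7.32 with PBS, so rapamycin mouse 1 lay within the PBS range. The difference was 0.51 (SE 0.186, unadjusted p = 0.0246, adjusted p = 1). Adk, adenosine kinase, differed by -0.16 with no overlap of the groups, and Dck, deoxycytidine kinase, by -0.16 with overlap. Among breakdown genes 8 of 12 lay higher and 4 lower (median 0.060). Gda, guanine deaminase, differed by 0.48 (SE 0.219, adjusted p = 1), Xdh, which makes uric acid, by 0.12, and the pyrimidine dehydrogenase gene Dpyd by -0.12.

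**Figure D4:**
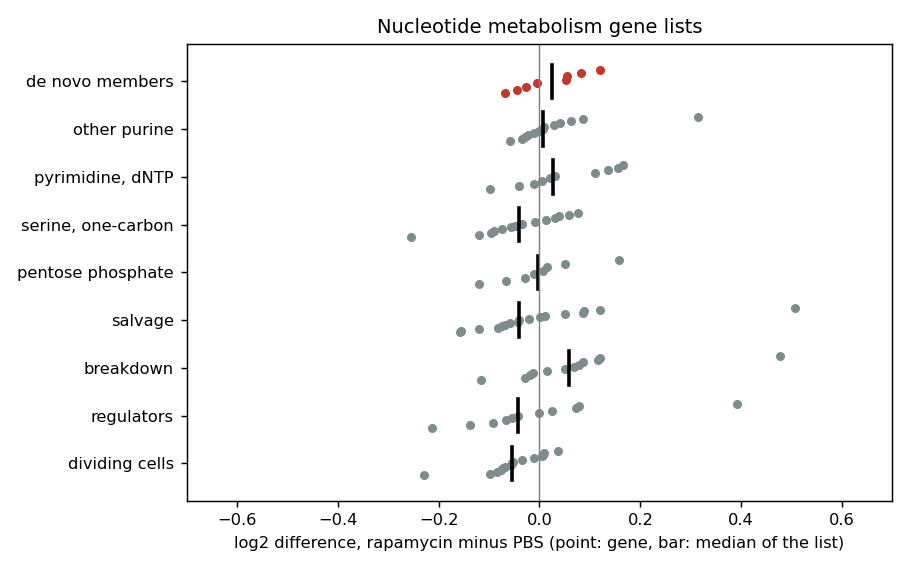
Log2 difference (rapamycin minus PBS, horizontal axis) of each measured gene (points) and the median of its list (bars) for the 8 de novo genes (red) and 8 other lists (grey). The medians lie between -0.054 and 0.060, and Upp1 (0.51), Gda (0.48), Myc (0.39) and Adssl1 (0.31) are the 4 points farthest to the right.

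Regulators of the pathway were measured as transcripts. Of 11 measured, 5 lay higher and 6 lower, and 0 passed the adjusted limma test. An unadjusted p under 0.05 was found for 1 of the 11, against 4.67% of all genes. Mtor differed by -0.067 (SE 0.098), and Rptor, the mTORC1 scaffold, averaged 8.55 ± 0.13 with rapamycin and 8.55 ± 0.12 with PBS. Rps6kb1, which encodes S6 kinase, was not analysed here. Atf4 differed by 0.078 (SE 0.087). Myc measured 10.01, 10.51 and 9.87 with rapamycin, against 9.54, 9.96 and 9.72 with PBS. The groups overlapped through PBS mouse 2, and the difference was 0.39 (SE 0.172, adjusted p = 1). Among the E-box genes shown above, Atic differed by 0.082 and Paics by -0.068. Mxd4, an antagonist of Myc at E-boxes, measured 9.04, 8.96 and 9.02 with rapamycin, against 9.18, 9.19 and 9.29 with PBS. It was lower in all 3 rapamycin mice (difference -0.21, SE 0.075, unadjusted p = 0.0205, adjusted p = 0.982), and so was Srebf1, a regulator of lipid synthesis, at -0.14 (SE 0.076, adjusted p = 1). Among the 11 regulators these were the 2 without overlap of the groups, against 9.42% of all genes.

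Nucleotide synthesis accompanies cell division, so genes of dividing cells were set beside the members; Tyms and Rrm2 belong to this list and to the pyrimidine list. They lay lower in 11 of 15 and higher in 4, with a median of -0.054. Of the 15, 0 passed the adjusted limma test and 1 had an unadjusted p under 0.05, against 4.67% of all genes. Their mean deviation was 0.014, -0.031 and -0.061 log2 in rapamycin mice 1 to 3, against -0.003, 0.052 and 0.028 in PBS mice. Plk1, a mitotic kinase, differed by -0.23 (SE 0.093, adjusted p = 1), Rrm2 by -0.098 and the checkpoint kinase Bub1 by -0.075. With this mean as a covariate the median difference of the 8 members was 0.148, and 0 members passed. The differences moved both ways: Cad was 0.231 and Pfas 0.285, but Paics was -0.251 and Dhodh -0.149.

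T cell markers lay lower with rapamycin in 8 of 12 measured genes and higher in 4, with a median of -0.026. Of the 12, 0 passed the adjusted limma test and 1 had an unadjusted p under 0.05, against 4.67% of all genes. That marker was Cd5, at -0.19 (SE 0.080, adjusted p = 1). It was also the 1 of 12 whose groups did not overlap, against 9.42% of all genes. Cd3e averaged 12.84 ± 0.08 with rapamycin and 12.87 ± 0.05 with PBS (SD, n = 3 each), and Cd4 and Cd8a, among the 4 that lay higher, differed by 0.14 and 0.026. Markers of neutrophils and their precursors were also present and lay higher with rapamycin in 16 of 17 genes. Of these markers 0 passed the adjusted limma test and 1 had an unadjusted p under 0.05, against 4.67% of all genes. Their mean deviation was 0.748, -0.317 and 0.130 log2 in rapamycin mice 1 to 3, against 0.312, -0.011 and -0.862 in PBS mice. Rapamycin mouse 1 had the highest neutrophil mean, and there Paics and Dhodh were at their lowest but Pfas and Atic at their highest. PBS mouse 3 had the lowest neutrophil mean, and there Cad, Pfas and Atic were at their lowest but Umps at its highest. With the neutrophil mean as a covariate the median difference of the 8 members was 0.057 and the difference of Cad -0.15, and 0 passed. Lcn2, the neutrophil granule gene with the highest level of its list, averaged 12.64 ± 0.27 with rapamycin and 12.20 ± 0.55 with PBS. Of the other marker lists, macrophage genes lay lower in 8 of 11, B cell and plasma cell genes in 5 of 11 and erythroid genes in 2 of 7. None passed the adjusted limma test, and an unadjusted p under 0.05 was found for 4 of 11, 2 of 11 and 0 of 7, against 4.67% of all genes. The lowest differences were those of the red pulp macrophage factor Spic at -1.34 (SE 0.194, adjusted p = 0.408) and the Fc receptor-like B cell gene Fcrl1 at -0.89 (SE 0.125, adjusted p = 0.408). The genes with the highest level of each list, Lyz2, Xbp1 and Slc4a1, differed by 0.29, 0.19 and 0.45, and each was the most positive of its list. The part of these cells in the members' values was not tested beyond the covariate fit for neutrophil markers.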

How the data were processed

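The authors deposited 1 table of log2 expression values for 35556 probe sets on 6 arrays. Per the submitters' processing notes it was made with Affymetrix Expression Console and RMA, which subtracts background, equalises the arrays and summarises probes. Versions were not given in the sources used here. No column was left out. Array medians lay between 6.03 and 6.17, and the correlation between any 2 arrays between 0.9887 and 0.9934.

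Group and replicate number came from the sample titles. Probe sets with exactly 1 symbol in the platform's probe table (21789) were kept, and the one with the highest mean over the 6 arrays stood for its gene (19938 genes). Tests used limma 3.58.1 in R 4.3.3, with group as the only term, Benjamini-Hochberg adjustment over all genes and 8.44 degrees of freedom. They were checked on simulated data with noise drawn independently for each gene, which does not cover shifts shared by many genes. Figures used matplotlib 3.10.9. The members and lists were chosen with earlier results of these data known. Named genes are all members, the 3 genes with the smallest p of each pathway list, Mtor, Rptor, Myc and Atf4, Cd3e, Cd4, Cd8a and the gene with the highest mean of each marker list. Prps1, Prps2, Adsl, Tyms, Rrm1, Mthfd2, Cd5, Spic and Fcrl1 were added after their values were seen. The titles give only a replicate number, so equal numbers were not taken as pairs. Deviations of same-numbered mice correlated at 0.086, -0.192 and 0.195, and those of other rapamycin and PBS mice between -0.438 and 0.365. These values do not settle whether mice were paired.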

Additional observations from a re-analysis of the deposited data

How the results depend on the processing

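No measured member passed limma's test in any of 15 alternatives, at adjusted p of 0.623 or more. Of 120 member differences 104 kept their sign, and Gart, Pfas and Atic kept it in all 15. Part of this agreement was fixed in advance. The replicate block, the mean of a gene's probe sets, leaving out the lowest genes, and the trend and robust variance cannot change a member's difference here. Leaving out 1 mouse gave the members' median difference between -0.0251 and 0.111 (without PBS replicate 2) and a count over all genes between 0 and 7 (without rapamycin replicate 1). It gave Cad between -0.167 and 0.101, Dhodh between -0.105 and 0.0451, Umps between -0.0913 and 0.0657, Ppat between -0.0382 and 0.12 and Paics between -0.126 and 0.0434. Pfas lay between 0.0463 and 0.202, Gart between 0.0207 and 0.121 and Atic between 0.0359 and 0.134. These 3 kept their sign, but their size depended on single mice too. Other sign changes without 1 mouse were Dhodh at 0.00873 and Umps at 0.0102 (PBS replicate 2), Umps at 0.0484 (rapamycin replicate 1) and Cad at 0.0284 (rapamycin replicate 3). Umps was also positive with arrays centred on their median (0.00539), quantile normalization (0.00287), array weights (0.0486, with Dhodh at 0.0163), and the neutrophil mean (0.0759) or dividing-cell mean (0.00547) as a covariate. With the dividing-cell mean Cad was 0.231, Paics -0.251, the members' median 0.148 and the count over all genes 0. With the neutrophil mean that count was 3 and Cad -0.15. The cause was not tested. With the replicate number as a block the count over all genes was 0 and the members' median 0.0241; the mice share only a number, and not every mouse correlated best with its own number. With 3 mice per group, a difference within a gene's own interval remains compatible with these values, and the intervals are not limits of detection.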
